A study of Mus musculus with 7 samples.

Results

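The 9 genes Slc5a2, Slc5a1, Slc2a2, Slc2a1, Pcx, Pck1, Fbp1, G6pc and Khk encode the carriers that move glucose across the kidney tubule and the enzymes that make glucose, or trap fructose, inside its cells. They were chosen by symbol, for their textbook role in the proximal tubule, from the 24328 genes listed in the files. Earlier results of these data were known when they were chosen. All 9 passed the filter on low values. RNA was measured in the right kidney of C57BL/6J mice at 4 weeks of age. The LBR-null mice were homozygous for the loss-of-function allele of the gene for the lamin B receptor (Lbr ic-J/ic-J), an inner nuclear membrane protein that holds heterochromatin at the nuclear envelope, and the WT mouse was Lbr+/+. The 3 LBR-null mice were 4001 and 4007, with 2 libraries each, and 4002, with 1 library, and the WT mouse was 4009, with 2 libraries. The allele is carried by every cell of the animal, so a difference that begins in the kidney and one that reaches it from the rest of the body cannot be told apart.

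The kidney filters glucose freely and takes nearly all of it back in the proximal tubule. SGLT2, the product of Slc5a2, takes up most of it with sodium through the apical membrane of the early segments, and SGLT1, the product of Slc5a1, takes up the remainder further along the tubule. Glucose then leaves across the basolateral membrane through GLUT2 (Slc2a2) in the early segments and GLUT1 (Slc2a1) in the later ones. The same proximal cells also make glucose from lactate, glutamine and glycerol, which makes the kidney the other gluconeogenic organ beside the liver. Pyruvate carboxylase (Pcx) and phosphoenolpyruvate carboxykinase (Pck1) carry out the entry steps, fructose-1,6-bisphosphatase (Fbp1) a middle step and glucose-6-phosphatase (G6pc) the last one. Ketohexokinase (Khk) phosphorylates fructose, which the same cells also use as a substrate.

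Pck1 and G6pc, which bound the pathway at its entry and its exit, were both higher in LBR-null kidneys, and the bases before their starts are shown because transcription of both is known to respond to hormones and fasting. A stretch of Khk and one of Slc5a1 are shown beside them because Khk, which was lower, holds the same half-site as Pck1, and Slc5a1, also lower, shares another motif with Khk. RefSeq (GRCm38.p6) gave a promoter for 8 of the 9 members, in 9 windows since Pcx had 2, and none for Slc5a2. The 250 bases before each start were searched on both strands for the cAMP response element half-site TGACG, the E-box CACGTG, the TATA box TATAAA and the FOXO core TGTTTAC. These motifs were chosen after the sequences were seen. Capitals mark the motif letters, each line runs 5′ to 3′ on the plus strand, and the bases before the start that it covers are given after it.

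Pck1: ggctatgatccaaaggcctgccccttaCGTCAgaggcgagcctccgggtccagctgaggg
G6pc: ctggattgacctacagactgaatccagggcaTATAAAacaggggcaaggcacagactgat
Khk: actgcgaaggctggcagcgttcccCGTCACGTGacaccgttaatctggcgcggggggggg
Slc5a1: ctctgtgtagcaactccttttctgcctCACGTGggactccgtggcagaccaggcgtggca

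The Pck1 stretch lies at chr2:173152956-173153015, from 117 to 58 bases before the start, and its capitals are the cAMP half-site read on the opposite strand. The G6pc stretch (chr11:101367656-101367715, the last 60 bases before the start) holds the TATA box, 29 bases before the start, and G6pc was the sole member with it. In the Khk stretch (chr5:30921461-30921520, from 98 to 39 bases before the start) the cAMP half-site and the E-box overlapped. The Slc5a1 stretch lies at chr5:33104049-33104108, from 170 to 111 bases before the start, and holds the E-box.

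Of the 8 genes, 3 (Slc5a1, Pcx and Khk) held the E-box, which 6.02% of all 32841 promoters hold, and 2 (Pck1 and Khk) held the cAMP half-site (17.8%). The TATA box was in 12.4% of all promoters, and the FOXO core, found in no member's window, was in 3.17%. The windows of Slc2a2, Slc2a1 and Fbp1 held none of the 4 motifs. A gene with a motif was higher in LBR-null kidneys in some cases and lower in others, and no motif was tested against expression. Only the windows of Khk and the first of Pcx had an observed over expected CpG ratio above 0.6 with at least 50% GC. Of all promoters, 31% did. The ratios of Khk and the first Pcx window were 0.66 and 0.75, while Slc2a1 had 0.51 and the other 6 windows 0.15 to 0.31. The study divided genes by a different measure, CpG islands around the start called both from sequence and from a binding experiment. The ratios here come only from bases before the start, so they do not give a member's class in the study.

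Values are read counts divided by a size factor for each library, called normalized counts here. The libraries held 20694016 to 25296831 reads on genes in LBR-null kidneys and 26333284 and 22969010 in WT. Lbr itself did not check the genotype at the RNA level, since it stood at 330, 314, 340, 495 and 448 normalized counts in the LBR-null libraries (in the order 4001, 4001, 4002, 4007, 4007, kept throughout) and at 416 and 381 in WT. The labels give no sex. Mouse 4002 resembled WT in the X-inactivation transcript Xist (65.3 against 39.4 and 31.7) and the Y-linked gene Ddx3y (1516 against 1299 and 1269), while mice 4001 and 4007 had Xist of 5352 to 10163 and Ddx3y of 39.2 to 149. Genotype and these levels cannot be told apart in mice 4001 and 4007, so the value of mouse 4002 is given for each member and each named gene of the pathway lists. Mouse 4001 also stood apart, with 829 and 730 normalized counts over 3 skeletal muscle markers (27.9 to 32.8 in the other LBR-null libraries, 44.9 and 5.43 in WT) and with 20028 and 13543 over 3 hepatocyte markers (6800 to 7451 in the other LBR-null libraries, 3111 in both WT libraries).

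The apical cotransporter SGLT2 had the largest log2 difference of the members with all mice included. Without mouse 4002 it was -1.57, behind G6pc (1.88) and Pck1 (1.81). Slc5a2 (chr7:135409171-135415944, plus strand, mm9) was at 2665, 2512, 694, 1187 and 1303 normalized counts in the LBR-null libraries and at 5335 and 5299 in WT. Every LBR-null library was below both WT libraries, mouse 4002 lay lowest, and mouse 4001 was closest to WT. The mean over mice was 1509 ± 975 (SD, n = 3) against 5317 in the WT mouse, which is 3.52-fold lower. On the log2(normalized count + 1) scale the difference was -2.02 (SE 0.66), and 5.77% of the 17283 genes tested had a larger absolute difference. The difference did not pass limma (adjusted p = 0.176). Mice 4001, 4002 and 4007 were 2.05-fold, 7.66-fold and 4.27-fold below WT. In bulk kidney, fewer cells that make a transcript and less of it in each cell cannot be told apart.

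SGLT1, the low-capacity partner further down the tubule, was lower too. Slc5a1 (chr5:33446868-33505521, plus strand) was at 1606, 1700, 1376, 953 and 900 normalized counts against 2281 and 2196 in WT. The groups did not overlap, and mouse 4007 lay lowest. The means were 1318 ± 367 (SD, n = 3) and 2239, a 1.70-fold lower level (log2 difference -0.80, SE 0.36, limma adjusted p = 0.292).

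The balance between both cotransporters does not depend on how a library is scaled. WT kidney had 2.37 normalized counts of Slc5a2 for each of Slc5a1, and mice 4001, 4002 and 4007 had 1.57, 0.504 and 1.34. All LBR-null mice were below WT, and mouse 4002 was the one with less Slc5a2 than Slc5a1. The log2 ratio averaged 0.03 ± 0.89 (SD, n = 3), a difference of -1.22 from WT. With 3 mice against 1, an exact permutation test of the absolute difference cannot give a p below 0.25, so none is given for such ratios.

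The basolateral carriers went different ways. GLUT2 varied more among LBR-null mice than it differed from WT: Slc2a2 (chr3:28596825-28627278, plus strand) was at 3212, 3426, 823, 1549 and 1507 normalized counts against 1570 and 1703. Mouse 4001 was 2.03-fold above the WT mouse, mouse 4002 was at 0.503 of it and mouse 4007 at 0.934, so the groups overlapped. The means were 1890 ± 1287 (SD, n = 3) and 1636, and the log2 difference was -0.02 (SE 0.69, limma adjusted p = 0.989), which turned to 0.46 without mouse 4002.

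GLUT1, which most cells carry, was the steadiest of the members among LBR-null mice. Slc2a1 (chr4:118781316-118809935, plus strand) was at 3804, 3891, 4333, 3464 and 3818 normalized counts against 2396 and 2349 in WT. Every LBR-null library was above both WT libraries, and the mice were 1.62-fold, 1.83-fold and 1.53-fold above WT. The means were 3941 ± 355 (SD, n = 3) and 2372, a 1.66-fold higher level (log2 difference 0.73, SE 0.25, limma adjusted p = 0.194). The 3 erythroid markers summed to 1473 to 2380 normalized counts in LBR-null libraries and to 3904 and 3767 in WT. Of these, Slc4a1 overlapped WT (1786 in mouse 4002 against 1707 and 1625), and the part of erythroid transcripts in the level of Slc2a1 was not tested. Slc2a2 per Slc2a1 was 0.863, 0.190 and 0.420 in mice 4001, 4002 and 4007 and 0.690 in WT.

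**Figure D1:**
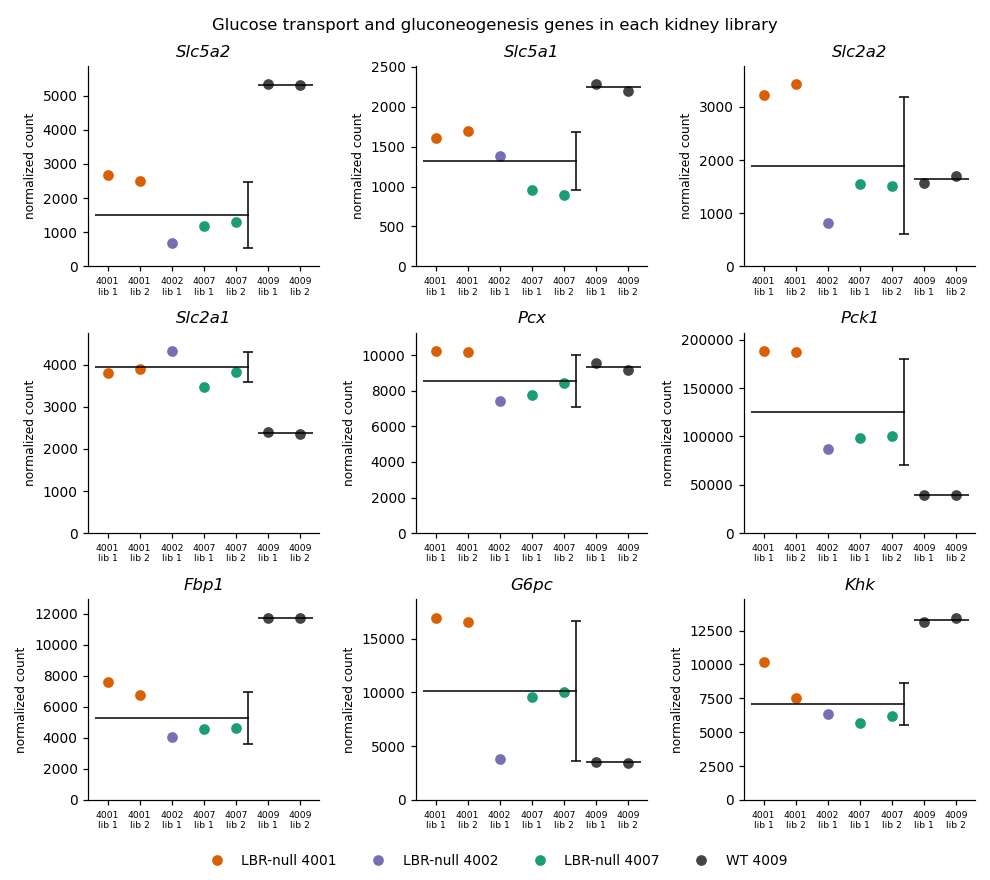
Normalized counts (vertical axes, from 0) of the 9 members in each of the 7 kidney libraries (horizontal axes, by mouse and library), with lines at the mean of the 3 LBR-null mice and at the WT mouse and a bar of ± 1 SD over LBR-null mice. Slc5a2, Slc5a1, Fbp1 and Khk lie below WT in every LBR-null library, Slc2a1, Pck1 and G6pc lie above it, and Slc2a2 and Pcx overlap.

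The entry of gluconeogenesis has a mitochondrial and a cytosolic step. The first, pyruvate carboxylase, differed little. Pcx (chr19:4510472-4621752, plus strand) was at 10245, 10173, 7424, 7736 and 8410 normalized counts against 9540 and 9168. Mouse 4001 was above WT and the other LBR-null mice below it, so the groups overlapped. The means were 8569 ± 1457 (SD, n = 3) and 9354 (log2 difference -0.14, SE 0.32, limma adjusted p = 0.854).

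PEPCK, the cytosolic step, was among the most abundant transcripts of the LBR-null kidneys. Pck1 (chr2:172978549-172984774, plus strand) was at 188628, 187779, 87425, 98522 and 100733 normalized counts against 39215 and 39020 in WT. It took 0.794%, 0.836%, 0.443%, 0.496% and 0.505% of a library's reads against 0.189% and 0.188%, and stood between the third and the eighth gene by reads in the LBR-null libraries and at the 26th and 27th place in WT. All LBR-null libraries were above WT, with mouse 4001 highest. The means were 125085 ± 55001 (SD, n = 3) and 39117, a 3.20-fold higher level (log2 difference 1.59, SE 0.70, limma adjusted p = 0.291). Mice 4001, 4002 and 4007 were 4.81-fold, 2.23-fold and 2.55-fold above WT.

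Fructose-1,6-bisphosphatase, the middle step, went the other way. Fbp1 (chr13:62966113-62989642, minus strand) was at 7591, 6790, 4057, 4576 and 4637 normalized counts against 11738 and 11757. No LBR-null library reached WT. The means were 5285 ± 1673 (SD, n = 3) and 11747, a 2.22-fold lower level (log2 difference -1.20, SE 0.38, limma adjusted p = 0.172).

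Glucose-6-phosphatase, which releases free glucose, was higher in mice 4001 and 4007 and near WT in mouse 4002. G6pc (chr11:101228875-101239217, plus strand) was at 16968, 16593, 3771, 9562 and 10017 normalized counts against 3504 and 3471. Mice 4001, 4002 and 4007 were 4.81-fold, 1.08-fold and 2.81-fold above WT. The means were 10114 ± 6511 (SD, n = 3) and 3487, a 2.90-fold higher level (log2 difference 1.29, SE 0.76, limma adjusted p = 0.412). In mouse 4002 alone the difference was 0.11.

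Hepatocytes also make Pck1 and G6pc, and the hepatocyte markers were highest in mouse 4001, where both genes were highest. Alb was at 11133, 6385, 2245, 1589 and 1503 normalized counts against 1559 and 1571 in WT. Serpina1a was at 8192, 6799, 4395, 5739 and 5535 against 1383 and 1356, and Apob at 703, 359, 160, 124 and 138 against 169 and 184. Serpina1a was above WT in every LBR-null library, Alb was above it in mice 4001 and 4002, and Apob was above it in mouse 4001. The part of hepatocyte transcripts in the results for Pck1 and G6pc was not tested.

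Ketohexokinase was lower in all LBR-null libraries. Khk (chr5:31223929-31233619, plus strand) was at 10147, 7486, 6373, 5691 and 6192 normalized counts against 13153 and 13467. The libraries of mouse 4001 differed 1.36-fold, the widest gap for any member between libraries of 1 mouse, and the next was 1.12-fold. The means were 7044 ± 1550 (SD, n = 3) and 13310, a 1.89-fold lower level (log2 difference -0.94, SE 0.34, limma adjusted p = 0.209).

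**Figure D2:**
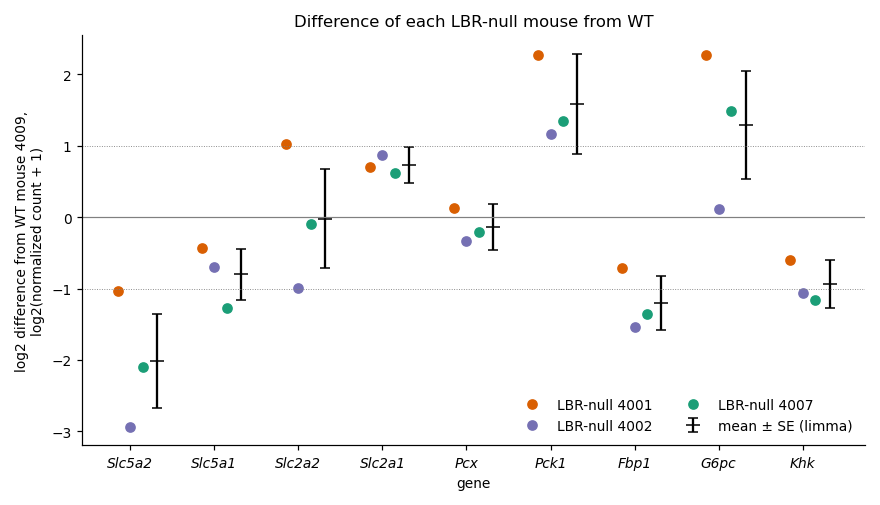
Log2 difference of each LBR-null mouse from the WT mouse (vertical axis, log2(normalized count + 1)) for the 9 members, with the limma estimate and its SE beside the points and dotted lines at a 2-fold difference. Mouse 4001 (orange) is the highest of the 3 for every member but Slc2a1, and the widest spreads are those of Slc2a2, G6pc and Slc5a2.

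Steps of a single pathway stood in different proportions. G6pc per Fbp1 was 0.297 in WT and 2.33, 0.930 and 2.12 in mice 4001, 4002 and 4007, a log2 difference of 2.49. Pck1 per Pcx was 4.18 in WT and 18.4, 11.8 and 12.3 in the LBR-null mice, a log2 difference of 1.73. Both ratios were higher than WT in every LBR-null mouse. Pck1 per G6pc was 11.2 in WT, 11.2 and 10.2 in mice 4001 and 4007, and 23.2 in mouse 4002, so the pair kept its proportion in all mice but 4002.

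**Figure D3:**
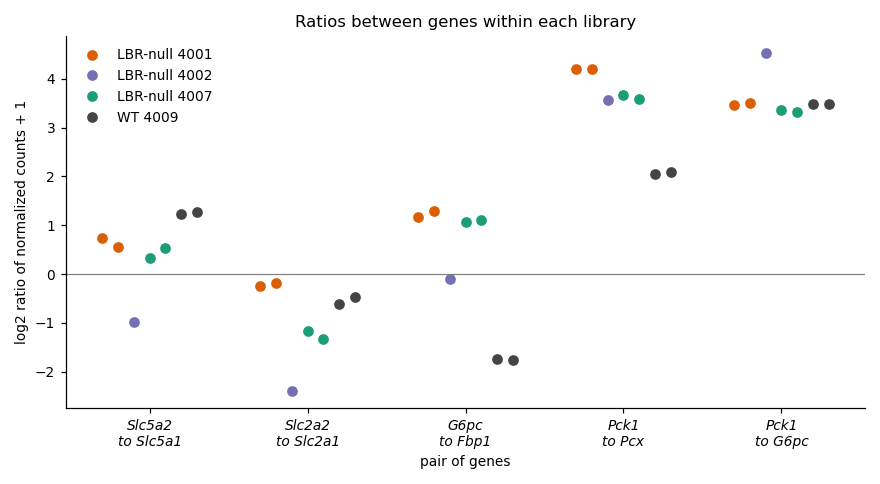
Log2 ratios of normalized counts + 1 (vertical axis) for 5 pairs of members in each of the 7 libraries. Slc5a2 to Slc5a1 is lower than WT in all LBR-null libraries, G6pc to Fbp1 and Pck1 to Pcx are higher, and Pck1 to G6pc stands apart only in mouse 4002.

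Levels of different genes were compared per kb of exon. In WT the order was Pck1 (11408 normalized counts per kb), Khk (7970), Fbp1 (6902), Pcx (2190), Slc5a2 (1835), G6pc (1445), Slc2a1 (832), Slc2a2 (595) and Slc5a1 (544). In LBR-null kidneys it was Pck1 (36479 ± 16040, SD, n = 3), Khk (4218 ± 928), G6pc (4190 ± 2697), Fbp1 (3105 ± 983), Pcx (2006 ± 341), Slc2a1 (1381 ± 125), Slc2a2 (687 ± 468), Slc5a2 (521 ± 336) and Slc5a1 (320 ± 89.1). Pck1 was first in each of the 4 mice, and the level of Slc5a2 stood at place 5 of 9 in WT, 8 in mice 4001 and 4007 and 9 in mouse 4002. G6pc stood at place 6 in WT, 5 in mouse 4002 and 2 in mice 4001 and 4007. Within the LBR-null mice, Khk was above Fbp1 in each (5279 and 4225, 3816 and 2383, 3558 and 2707 normalized counts per kb in mice 4001, 4002 and 4007), and Slc2a2 was above Slc5a2 in each (1206 and 894, 299 and 240, 555 and 430). The order of G6pc with Khk, Fbp1 and Pcx, and of Slc5a1 with Slc5a2 and Slc2a2, changed between LBR-null mice.

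The members were then set against all genes. Of the 9, 2 were at least 2-fold higher in LBR-null (Pck1 and G6pc; 22.7% of all 21468 genes above 0 were) and 2 at least 2-fold lower (Slc5a2 and Fbp1; 8.8%). The members are abundant genes, and among the 3132 genes with a mean at least that of Slc5a1, the lowest member, the shares were 5.11% higher and 3.93% lower. This comparison by level was added after the data were seen. In 3 members all 5 LBR-null libraries were above both WT libraries (Slc2a1, Pck1 and G6pc) and in 4 they were below (Slc5a2, Slc5a1, Fbp1 and Khk), as in 25.5% and 25.7% of the 17283 genes tested and in 28.7% and 26.6% of the genes at the members' level. The median log2 difference of the members was -0.14, with 3 higher and 6 lower, beside 0.01 for all genes tested.

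limma on mouse means called no member and 0% of the genes tested, so this test separates no gene from the spread between mice. At an unadjusted limma p under 0.05, 1 member was higher (Slc2a1, 10.7% of genes) and 3 were lower (Slc5a2, Fbp1 and Khk, 8.05% of genes). edgeR on the recovered reads called no member and 0.162% of genes. DESeq2, the tool of the study, called Pck1 higher (adjusted p = 0.0135; 3.24% of genes) and Slc5a2 lower (adjusted p = 0.046; 3.48% of genes). limma on the 7 libraries with the mouse as a block called Slc5a2 (adjusted p = 0.033) and Fbp1 (adjusted p = 0.0329) lower, as it did 2.9% of genes, and no member higher (2% of genes). Without mouse 4001, limma called the same pair, with differences of -2.51 (adjusted p = 0.0171) for Slc5a2 and -1.44 (adjusted p = 0.0274) for Fbp1, as it did 3.48% of genes, and it called no member higher (2.52% of genes).

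Segment markers of the proximal tubule also differed between libraries, and their part in the results was not tested. The 6 general proximal tubule markers summed to 173226, 171485, 128100, 123214 and 126153 normalized counts against 168252 and 167525 in WT, above WT in mouse 4001 and below it in the others. The largest part of the sum was Slc27a2 in LBR-null kidneys (74463 ± 15481, SD, n = 3, against 51706 in WT) and Slc34a1 in WT. Slc27a2 and Aqp1 were above WT in every LBR-null library. Lrp2 (8188 ± 3368 against 23320), Cubn (2968 ± 1027 against 5653) and Slc34a1 (21038 ± 7499 against 64099) were below WT in every one, as Slc5a2 was. The 4 markers of the S1 and S2 segments, where SGLT2 and GLUT2 belong, summed to 24599, 28932, 11035, 23872 and 23552 against 14993 and 15100. That sum was above WT in mice 4001 and 4007 and below it in mouse 4002, whereas Slc5a2 was below WT in all of them. The 4 markers of the S3 segment, where SGLT1 belongs, summed to 4166 to 9675 against 14262 and 14230, below WT in every LBR-null library, as Slc5a1 was. The largest part of that sum was Atp11a (5184 ± 1963, SD, n = 3, against 9360). Of the 4, 3 were below WT in every LBR-null library, while Cyp7b1 overlapped WT (143 ± 5.11 against 117). No kidney lacked proximal tubule markers. The markers of a segment went both ways, since within the S1 and S2 list Slc6a19 was at 6148 ± 4134 (SD, n = 3) against 1081 and Slc22a6 at 409 ± 126 against 7282.

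Over the 7 libraries, the genes whose log2 level was most like that of Slc5a2, of 13058 genes with a mean of at least 50, were Vil1 (Pearson r = 0.9975), which encodes the microvillus protein villin, Lpgat1 (0.9957), Thbd (0.9939), Eif4e2 (0.9920) and Dnajb1 (0.9896). The libraries share mice and the group difference, so the correlations are descriptions. The differences of these genes were smaller than that of Slc5a2, for example 1806 ± 433 (SD, n = 3) against 3094 normalized counts for Vil1.

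Other genes of glucose transport and metabolism were taken from 6 lists with 84 genes, of which 82 were tested. The lists were fixed by function, with earlier results of these data known. Named were the genes at least 2-fold different with all LBR-null libraries on one side of WT, which gave 13 higher and 11 lower (11.7% and 6.81% of all genes tested were such). limma called none of the 82 after adjustment over all genes, and its adjusted p was between 0.0906 and 0.416 for the named genes. Markers of other cells differed as well: the 3 adipocyte markers, whose cells also use genes of these lists, summed to 33.5 to 214 normalized counts in LBR-null libraries against 1218 and 1216 in WT, and the 3 neutrophil markers to 340 to 2203 against 55.9 and 61.5. Each of these markers lay on one side of WT in all LBR-null libraries. The hepatocyte markers given above were also higher in sum in every LBR-null library, and liver expresses several genes of these lists, Gckr and Got1 among them. The part of these cell types in the results was not tested. At an unadjusted limma p under 0.05, 16 of the list genes were higher and 10 lower (10.7% and 8.05% of all genes). DESeq2 called 8 higher and 7 lower (3.24% and 3.48%), limma with the mouse as a block 8 higher and 8 lower (2% and 2.9%), and edgeR 0 (0.162%). Genes given below that do not meet this rule were chosen after their values were seen. For list counts given below with a mouse left out or in mouse 4002 alone, the share of all genes is not given.

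Among 14 other hexose and related transporters, 1 was higher and 5 were lower, with a median log2 difference of -0.19. The lower ones were all of the sodium-coupled family. Slc5a11, the inositol and glucose cotransporter SMIT2, was at 95.3, 117, 248, 89.4 and 92.1 normalized counts against 1361 and 1399, a mean of 148 ± 87.0 (SD, n = 3) and a 9.30-fold lower level (limma adjusted p = 0.0907, DESeq2 adjusted p = 4.09e-06). All LBR-null libraries were far below WT, and mouse 4002 was the highest of them. Slc5a10 (SGLT5, a mannose and fructose carrier) was at 1241 ± 738 against 3029 (mouse 4002 at 2021) and Slc5a9 (SGLT4) at 351 ± 61.2 against 709 (mouse 4002 at 403). Slc5a4a and Slc5a4b, close paralogs whose reads may be split, were at 16.9 ± 7.51 against 36.1 and 10.7 ± 2.43 against 25.8, with 24.1 and 11.2 in mouse 4002. The higher one, the urate carrier Slc2a9 (GLUT9), was at 1506 ± 564 against 491, with 858 in mouse 4002. The fructose carrier Slc2a5 (GLUT5) overlapped WT, at 890 ± 312 against 1114, and so did Pdzk1ip1, which encodes the SGLT2 partner MAP17, at 16090 ± 1791 against 14529. In mouse 4002 alone 3 genes of this list were at least 2-fold different, in place of 6.

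Of 15 other genes of gluconeogenic steps tested, 1 was higher and 2 were lower, with a median of -0.44. The muscle-type bisphosphatase Fbp2 was lower like Fbp1, at 224 ± 67.2 (SD, n = 3) against 724 normalized counts, and phosphoglycerate mutase Pgam1 was at 1245 ± 278 against 2595. Mouse 4002 had 297 of Fbp2 and 1544 of Pgam1. Got1, the cytosolic aspartate aminotransferase, was at 6965 ± 5309 against 2533, with 13379 and 12770 in mouse 4001, 3483 in mouse 4002 and 4266 and 4406 in mouse 4007. The glucose-6-phosphate carrier Slc37a4, which works with G6pc, was at 13389, 11942, 4768, 7375 and 7807 against 4838 and 4799. Mouse 4002 was beside WT in Slc37a4, as in G6pc. Mitochondrial Pck2 was at 1388 ± 203 against 892. Eno1 was listed at 0 in every library, and whether this came from the counting or from the tissue was not tested.

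Among 14 genes that supply substrate, 1 was higher and 1 was lower, with a median of -0.24. Slc5a12, the lactate cotransporter of the early proximal tubule, was at 12578, 14905, 7742, 13693 and 13399 normalized counts against 4507 and 4653, with a mean of 11677 ± 3408 (SD, n = 3) and 4580. It was above WT in every LBR-null library. Gpd1, which takes glycerol 3-phosphate toward glucose, was at 2290 ± 442 against 7245, a 3.16-fold lower level, with 2400 in mouse 4002. Slc5a12 is also among the S1 and S2 markers above. The number of genes of this list at least 2-fold different went from 2 to 4 without mouse 4002 and was 1 in that mouse alone.

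Among 17 genes at the entry and the commitment of glycolysis, 3 were higher and 1 was lower, with a median of 0.11. Pdk4, the kinase that shuts pyruvate out of the mitochondrial dehydrogenase in fasting, was at 7355, 7680, 1329, 4568 and 4487 normalized counts against 386 and 353. It had the largest fold of the 13 named genes that were higher, 12.1, with mice 4001, 4002 and 4007 at 20.4-fold, 3.60-fold and 12.3-fold the WT level (limma adjusted p = 0.128, DESeq2 adjusted p = 7.41e-05). Gckr, at a low level, was at 49.4 ± 7.74 (SD, n = 3) against 7.73, with 41.3 in mouse 4002. Pyruvate kinase of liver and kidney, Pklr, was at 309 ± 53.3 against 661, with 302 in mouse 4002.

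Of the 6 other genes of fructose and polyol steps tested, 2 were lower and none was higher, with a median of -0.27. Both were enzymes downstream of Khk that handle the glyceraldehyde and glycerate made from fructose. Glyctk (glycerate kinase) was at 415, 522, 742, 507 and 513 normalized counts against 2385 and 2280, with a mean of 573 ± 148 (SD, n = 3) and 2332. Tkfc (triokinase) was at 2140 ± 517 against 6827, with 2713 in mouse 4002. Both were more than 3-fold lower with no overlap (limma adjusted p = 0.0906 for Glyctk and 0.0969 for Tkfc). Akr1b3 was listed at 0 in every library, as Eno1 was, and the reason was not tested.

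Among 18 regulators, 7 were higher and none was lower, with a median of 0.70. Txnip, a glucose-induced brake on glucose uptake, was at 44338, 41103, 17824, 39265 and 38297 normalized counts against 7427 and 7317. Irs2, an insulin receptor substrate that FOXO factors induce, was at 516 ± 318 (SD, n = 3) against 79.9, and the insulin receptor Insr at 4345 ± 849 against 2124. The coactivator Ppargc1a was at 4465 ± 847 against 2135, Klf15, a factor for gluconeogenesis from amino acids, at 4332 ± 935 against 2059, Cebpb at 1541 ± 559 against 708 and Foxo3 at 685 ± 448 against 219. Mouse 4002 was nearer WT than the group mean for each of these 7 genes. It was at 2.42-fold the WT level for Txnip, 2.38-fold for Irs2, 1.59-fold for Insr, 1.98-fold for Ppargc1a, 1.80-fold for Klf15, 1.43-fold for Cebpb and 1.48-fold for Foxo3. Hnf4a, a factor of proximal tubule identity, overlapped WT, at 9512 ± 2691 against 11810. The number of regulators that were at least 2-fold different went from 7 to 3 without mouse 4001 and was 2 in mouse 4002 alone, so it rested in part on 1 mouse.

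**Figure D4:**
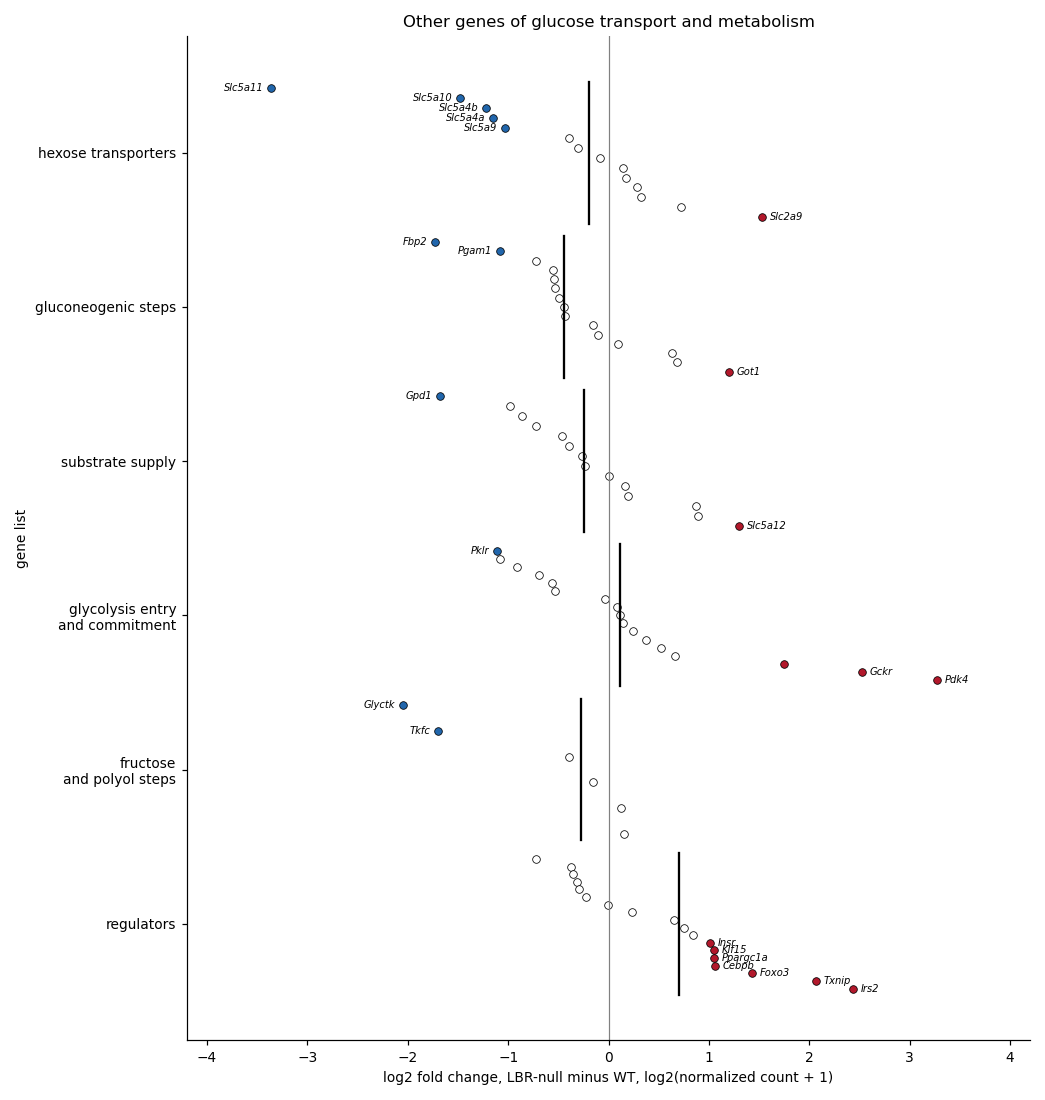
Log2 fold change between LBR-null and WT on log2(normalized count + 1) (horizontal axis) for the tested genes of the 6 lists (rows), with a vertical line at each list's median. Filled points are at least 2-fold different with all LBR-null libraries on one side of WT, 7 of them among regulators and all higher, and 6 among hexose transporters of which 5 are lower.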

How the data were processed

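Poly(A) RNA of pulverized right kidneys was sequenced in 150-bp pairs. Per the labels and methods, the authors used STAR 2.6.0 against mm9 and deposited a signal per gene and library, namely read counts over the DESeq2 1.25.1 size factor. The counting program, annotation and strand setting are not given in the sources used here, so genes that overlap Slc5a2, Slc5a1, Slc2a2, Slc2a1, Pcx and Fbp1 may share their reads. All values (100%) were whole multiples of 1 read within 0.01 read, and the lowest member value rested on 807 reads (counting error 3.52%).

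Libraries were averaged within a mouse. limma 3.58.1 (eBayes with trend, Benjamini-Hochberg, 2 residual degrees of freedom) was fitted to log2(normalized count + 1) of 17283 genes averaging at least 5, with calls at adjusted p under 0.05 and 2-fold. With a single WT mouse, the spread comes from LBR-null mice. Alternatives were other pseudocounts, filters and scalings, edgeR 4.0.16 and DESeq2 1.42.0 on reads summed per mouse, the mouse as a block, and leaving out mice or libraries. limma, edgeR and DESeq2 were run on simulated counts of 3 LBR-null mice against 1 WT mouse. They recovered 99, 100 and 96 of 100 genes with a simulated log2 difference of 2. The simulated spread between mice was below that of most members, whose coefficient of variation among LBR-null mice reached 68.1% (Slc2a2). The simulation therefore does not measure recovery in these data. All members were named, and list genes by the rule in the text, and some of these are counted but not reported by name here. Members and lists were chosen with earlier results of these data known. Gene coordinates are GENCODE vM1 (mm9) and promoters RefSeq GRCm38.p6.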

Additional observations from a re-analysis of the deposited data

Results flagged for a closer look

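In 4 of 34 genes examined (the members, the named list genes and Lbr), 1 of the 5 LBR-null libraries lay far from the other 4 (gap over range above 0.71). Chance flags about 1 in 20 groups of independent values, but both libraries of a mouse are not independent, so that rate does not hold here. All 4 were the library of mouse 4002, the LBR-null mouse with 1 library. Where both libraries of a mouse are alike, the screen cannot flag that mouse, so it mostly finds mouse 4002. Insr was at 3367 normalized counts there, against 4617 to 4961 in the other LBR-null libraries and 2106 and 2142 in WT. Slc2a9 was at 858, against 1761 to 1890 and 461 and 521 in WT. Slc5a11 was at 248, the highest LBR-null value, against 89.4 to 117 and 1361 and 1399 in WT. Txnip was at 17824, against 38297 to 44338 and 7427 and 7317 in WT. In each case mouse 4002 lay on the side of WT.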

How the results depend on the processing

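The 5 main results (members called, 2-fold members, members that did not overlap WT, their median difference and the Slc5a2 to Slc5a1 ratio) were recomputed under each alternative, and 74 values stayed within the spread or the 1.5-fold limit while 5 moved. The number of members called by limma was 0, and it was 2 with the mouse as a block, 2 with DESeq2 and 2 without mouse 4001, a fit that called 3.48% of all genes lower (0 to 2 over all values with a mouse or library left out). In mouse 4002 alone the median over the members was -0.70 and the log2 ratio of Slc5a2 to Slc5a1 differed from WT by -2.23. With a mouse or library left out, 3 to 5 members were 2-fold different, 7 to 9 did not overlap WT, the median was -0.55 to -0.04 and the ratio difference -1.53 to -0.71. The 9 came without mouse 4001, where fewer LBR-null libraries face WT and any gene overlaps less often. Shares of all genes are not given for these 2-fold and overlap counts. Slc2a2 turned from -0.02 to 0.02 with the mouse as a block, 0.19 with edgeR, 0.20 with DESeq2, 0.46 without mouse 4002, 0.01 without mouse 4007 and 0.04 without WT library 2. The cause was not tested. No other member changed direction. Equal totals and TMM moved no call, and the median of all genes moved by at most 0.029. The 2-fold, overlap and ratio results use the deposited values alone and have no value under edgeR, DESeq2, the mouse block and the filters. No paired analysis was possible because the replicate numbers name libraries of a single mouse and join no LBR-null mouse to a WT mouse. With 1 WT mouse, no spread among WT animals was measured, and the counting error of a member was at most 3.52% of its value.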

Other observations

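Several regulators lay outside WT in all LBR-null libraries by less than 2-fold, and they are given here as values chosen after they were seen. The insulin receptor substrate Irs1 was at 1496 ± 284 (SD, n = 3) normalized counts against 827, the CREB coactivator Crtc2 at 1574 ± 323 against 925 and the deacetylase Sirt1 at 896 ± 131 against 567. Cebpa, a factor of metabolic gene expression in liver, was at 601 ± 47.9 against 989, which is the opposite direction to Cebpb. The glucocorticoid receptor Nr3c1 was at 1771 ± 266 against 2154, and Foxo1 overlapped WT, at 1814 ± 171 against 1823. Feeding state and the hour of tissue collection are not given in the sources used here.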
